A study of Homo sapiens with 8 samples.

Results

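The type I interferon response genes are a fixed list of 41 genes that cells raise when interferon alpha or beta binds its receptor. The list is defined by gene symbol, and 40 of the 41 were measured among 18231 genes, each read from the brightest probe set, on average over the 8 arrays, of those annotated to it alone. STAT2 is not analysed here. The cells were JVM13, an established line of human B-cell prolymphocytic leukaemia, carrying a doxycycline-inducible vector. In 3 arrays the vector held wild-type cyclin D1, in 3 it held cyclin D1 with the T286A mutation, and in 2 it was empty (titled control). Every group, the empty vector included, received 0.1 µg/mL doxycycline, so none of the comparisons is against uninduced cells, and the labels name no interferon treatment. The labels give neither the length of induction nor how many populations or clones were made with each vector, so construct and cell population cannot be told apart. Cyclin D1 is the partner of the kinases CDK4 and CDK6 that drives cells out of G1. The mutated threonine is the residue whose phosphorylation sends it to the cytoplasm and the proteasome, and the labels describe the T286A form as highly stable.

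Type I interferons act through the receptor subunits IFNAR1 and IFNAR2 and the kinases JAK1 and TYK2. The signal reaches the nucleus as the complex ISGF3, whose subunit IRF9 binds the interferon-stimulated response element (ISRE) in the promoters of many of the genes described here. Products of the listed genes sense or degrade viral RNA, block translation and viral entry, or feed back on the pathway. Many of the genes are also expressed at a basal level in unstimulated cells.

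The ISRE can be read in the promoters themselves. RefSeq windows (GRCh38.p14) from 250 bases before to 50 bases after each annotated start matched 33 of the 40 members, and the 9-letter ISRE core GAAANNGAA, on either strand, was present in 26 of these 33 (78.8%), against 1332 of 14491 tested genes with a window (9.19%). The palindromic STAT site TTCNNNGAA was present in 11 of the 33 members (33.3%) and in 9.15% of all genes. The last 3 letters of a STAT site can begin an ISRE core, and the matches overlapped in 5 members, BST2, EPSTI1, IFI27, IFITM1 and MX1. No core of these letters lay in the windows of HERC6, IFI35, IRF1, IRF9, OAS1, SAMD9L and XAF1. The windows shown here, the 250 bases upstream of the start, belong to the 4 members that had a window and differed between groups at an adjusted p under 0.05, and they are printed because these members carry the results that follow. Capitals mark each ISRE core, read forward or as its reverse complement, and every line runs 5′ to 3′ on the strand of the gene.
OAS3, chr12:112938224-112938473, plus strand: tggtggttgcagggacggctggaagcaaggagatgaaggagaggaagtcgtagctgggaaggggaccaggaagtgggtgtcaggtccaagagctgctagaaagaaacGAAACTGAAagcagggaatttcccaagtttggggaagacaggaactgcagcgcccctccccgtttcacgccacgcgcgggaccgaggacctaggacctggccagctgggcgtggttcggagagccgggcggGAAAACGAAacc
IFIT3 first start, chr10:89327747-89327996, plus strand: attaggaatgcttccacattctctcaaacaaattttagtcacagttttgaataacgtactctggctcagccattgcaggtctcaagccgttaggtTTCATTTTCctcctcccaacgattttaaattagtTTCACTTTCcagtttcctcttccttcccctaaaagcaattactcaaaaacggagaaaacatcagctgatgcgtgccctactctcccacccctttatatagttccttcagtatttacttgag
IFIT3 second start, chr10:89332279-89332528, plus strand: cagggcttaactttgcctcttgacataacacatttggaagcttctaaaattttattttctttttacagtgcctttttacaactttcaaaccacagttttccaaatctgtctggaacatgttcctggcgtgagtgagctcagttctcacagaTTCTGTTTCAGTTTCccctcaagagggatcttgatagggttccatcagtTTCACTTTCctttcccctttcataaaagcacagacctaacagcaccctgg
DDX60, chr4:168318753-168319002, minus strand: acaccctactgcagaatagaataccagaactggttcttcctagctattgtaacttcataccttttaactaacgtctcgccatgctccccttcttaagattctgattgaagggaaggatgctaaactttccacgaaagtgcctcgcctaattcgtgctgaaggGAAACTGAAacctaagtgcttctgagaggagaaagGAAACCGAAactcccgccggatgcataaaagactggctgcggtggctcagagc
EPSTI1, chr13:42992242-42992491, minus strand: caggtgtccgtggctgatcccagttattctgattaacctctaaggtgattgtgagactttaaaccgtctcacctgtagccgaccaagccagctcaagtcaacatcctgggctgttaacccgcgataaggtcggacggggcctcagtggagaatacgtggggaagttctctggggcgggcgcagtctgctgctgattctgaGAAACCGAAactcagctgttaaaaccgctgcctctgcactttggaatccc
The OAS3 core nearest the start lay 12 bases upstream of it and a second lay 143 bases upstream. DDX60 held cores at 88 and 53 bases and EPSTI1 a single core at 50 bases, while IFIT3 held reversed cores at 155 and 121 bases before its first start and at 99, 93 and 50 bases before its second. The core was also held by 22 of the 29 members with a window that were not called (75.9%), MX1, ISG20 and EIF2AK2 among them. IFIT2, MX2 and OASL, which were called, had no entry in the table of windows.

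The 8 arrays had medians over all probe sets between 5.47 and 5.62 (log2), and the level of the members was high, with 36 of 40 at or above the median level of all genes, 5.94. HERC6, IFITM3, CMPK2 and RSAD2 lay below it. Wild-type replicate 2 stood apart, with a limma array weight of 0.513 against 0.850 to 1.44 in the other arrays. CCND1, the gene of the vector, was higher than in the empty vector by 5.95 ± 0.13 (log2 difference ± SE, adjusted p = 5.22e-07) with wild type and by 5.90 ± 0.13 (adjusted p = 5.54e-07) with T286A. The T286A minus wild-type difference in CCND1 was -0.04. All 5 B-cell markers measured (MS4A1, CD79A, CD79B, PAX5, CD22) were at or above the median level of all genes, against 0 of 6 T and NK cell markers, 1 of 7 monocyte markers (ITGAM) and 0 of 3 plasmacytoid dendritic cell markers. The summed log2 level of the B-cell markers ran from 53.2 to 53.3 in the empty vector, from 52.7 to 53.1 with wild type and from 52.8 to 53.0 with T286A. CD22, an inhibitory receptor of B cells, was called lower in wild-type cells than with the empty vector, at -0.40 (adjusted p = 0.0498), a call lost without any 1 of the 8 arrays (0.0607 to 0.251). The corresponding sums for the plasmacytoid dendritic cell markers, a cell type that makes interferon alpha, were 13.8 to 14.0, 13.5 to 13.9 and 13.4 to 13.7. Sums for T and NK cell markers were 28.1 to 28.6, 27.5 to 28.1 and 27.6 to 29.0, and those for monocyte markers 35.0 to 35.6, 34.6 to 34.7 and 34.1 to 34.9. The part of these shifts in the results was not tested. In RNA from a whole culture, fewer cells expressing a gene and less RNA per cell cannot be told apart.

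In cells with wild-type cyclin D1 some of the interferon genes were lower than with the empty vector. Of the 40 members, OAS3, DDX60, EPSTI1, IFIT3 and MX2 fell (called throughout at an adjusted p under 0.05 by limma, adjusted over all 18231 genes) and 0 rose. These 5 make up 12.5% of the members, where 1.14% of all genes were called lower and 0.603% higher. The list was chosen with earlier results of these data known, so this contrast is a description and not independent support. Brighter genes were called more often. Among those at or above the median level, 13.9% of 36 members and 2.99% of 9116 genes were called in either direction. At an unadjusted p under 0.05 the counts were 18 lower and 0 higher, beside 7.42% and 6.08% of all genes. In 23 members all 3 wild-type arrays lay below both empty vector arrays, as they did for 15.3% of all genes. The members' median log2 difference was -0.21, where that of all genes was 0.0016, and single members ran from -0.98 for OAS3 to 0.08 for IRF7, with 33 negative and 7 positive. The members' median level was 9.50 and 9.47 in the 2 empty vector arrays and 9.22, 9.26 and 9.28 in the 3 wild-type arrays, so the groups did not overlap. The count of 5 fell to 2 without empty vector replicate 1, to 1 without empty vector replicate 2 and to 2 without wild-type replicate 3. Centring each array on its median turned the calls over all genes from 110 higher and 207 lower to 195 higher and 146 lower, and the members called lower were then 4 (DDX60, EPSTI1, IFIT3 and OAS3).

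**Figure D1:**
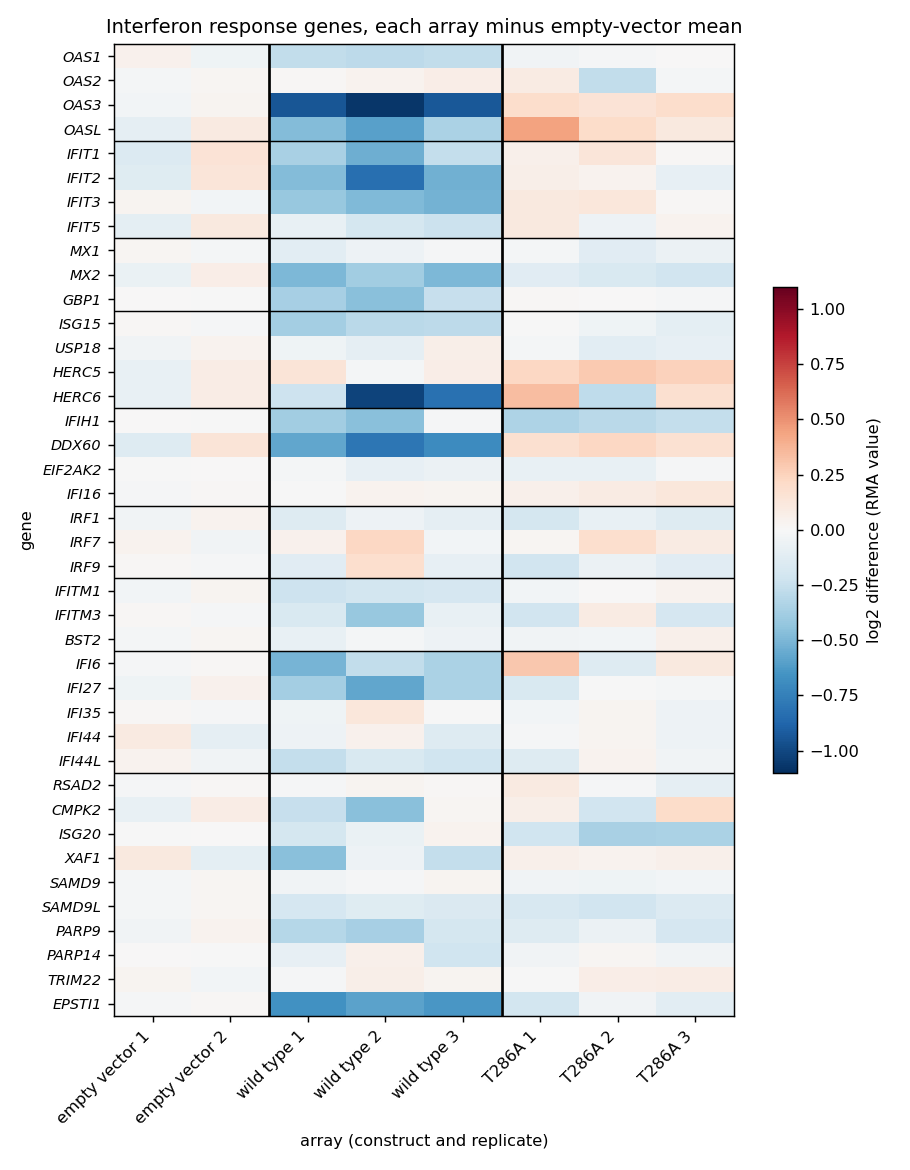
Log2 level of each of the 40 measured interferon genes in each of the 8 arrays, drawn as the difference from that gene's mean in the 2 empty vector arrays, with genes in rows by role and arrays in columns by group. The darkest blue cells, among them those of OAS3, HERC6, IFIT2 and DDX60, lie in the wild-type columns. Of the 40 genes, 31 to 37 lie below the empty vector mean in each wild-type array and 22 or 23 in each T286A array. The 2 empty vector arrays that make this mean have 25 and 15 genes below it. The same count over all genes was not made.

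In cells with T286A cyclin D1 the same genes stood near the empty vector. Limma called 0 of the 40 members in either direction, where it called 0.532% of all genes. Its fit with a trended, robust prior called 1, ISG20, and 626 of all 18231 genes. At an unadjusted p under 0.05 OAS3 and HERC5 were higher, 2 members beside 5.95% of all genes, and IFIH1, ISG20 and SAMD9L were lower, 3 members beside 6.15%. All 3 T286A arrays lay above both empty vector arrays for 5 members, beside 15.2% of all genes, and below them for 11, beside 16.7%. The median difference was -0.014 (all genes -0.003), the range ran from -0.31 for ISG20 to 0.26 for HERC5, and the members' median level was 9.46, 9.51 and 9.47 in the 3 T286A arrays. A p above the threshold does not show that levels were equal.

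Set directly against wild type, T286A cells had higher levels of 6 of the 40 members. OAS3, DDX60, OASL, IFIT2, IFIT3 and EPSTI1 were called higher and 0 members lower. They make up 15% of the members, where 0.598% of all genes were called higher and 0.389% lower. The limit set by the choice of the list holds here too. Among genes at or above the median level, 16.7% of 36 members and 1.58% of 9116 genes were called in either direction. At an unadjusted p under 0.05 there were 19 higher and 1 lower (ISG20), beside 7.16% and 6.46% of all genes. In 20 members every T286A array lay above every wild-type array, beside 9.94% of all genes. The median difference was 0.16 (all genes 0.0002), or 0.10 with each array centred on its median (all genes -0.06), with 28 positive and 12 negative, and the range ran from -0.23 for ISG20 to 1.16 for OAS3. This comparison uses the wild-type arrays that also enter wild type against empty vector, so the 2 are not independent. The count was 3 without wild-type replicate 1 and 3 without T286A replicate 2, and OAS3, DDX60 and IFIT3 were called under all 16 alternative settings.

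**Figure D2:**
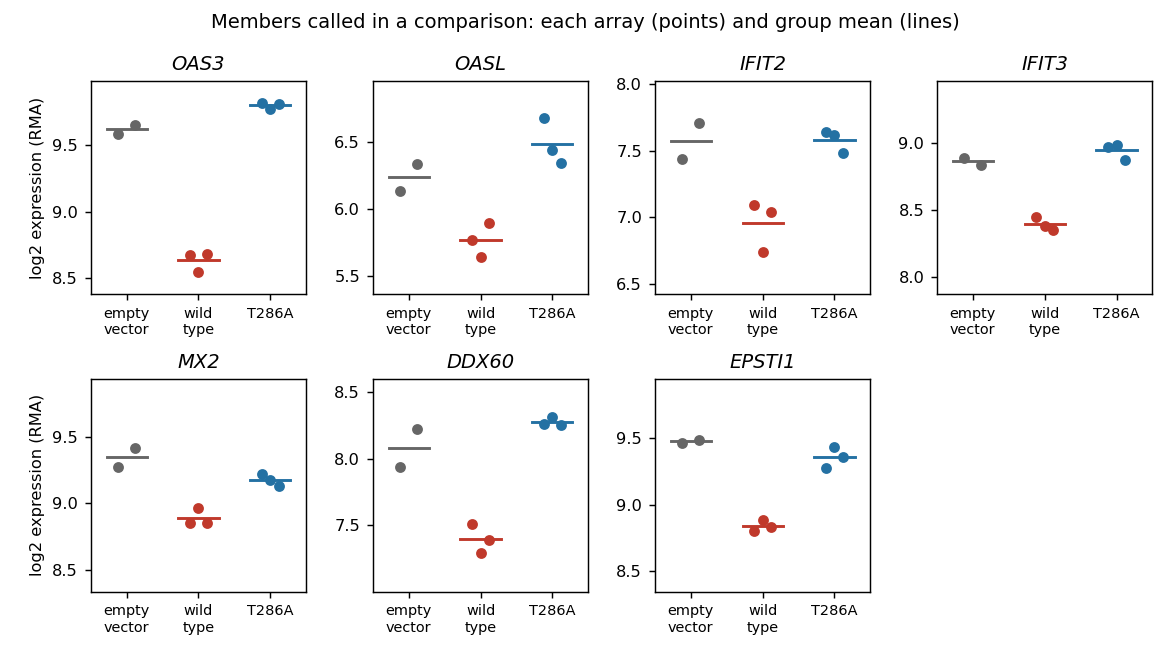
Log2 level in each array of the members called in any comparison, with 1 panel a gene, 1 point an array and a bar at each group mean (2 empty vector, 3 wild-type and 3 T286A arrays). In every panel the wild-type points are the lowest of the 3 groups, and for OAS3 they lie between 8.55 and 8.68 against 9.58 to 9.81 in the other groups.

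The oligoadenylate synthetases make the 2-5A messenger that switches on RNase L, and they held the largest difference. OAS3, the member of the family that binds long double-stranded RNA, stood at 9.58 and 9.65 with the empty vector, at 8.68, 8.55 and 8.68 with wild type and at 9.81, 9.77 and 9.81 with T286A. No array of the wild-type group came near the others, and the T286A arrays lay slightly above both controls. OAS3 fell by 0.98 ± 0.071 (log2 difference ± SE, 1.97-fold lower, 95% interval -1.14 to -0.82, adjusted p = 0.000962) in wild-type cells, and it was 1.16 ± 0.063 higher (2.24-fold, adjusted p = 0.000202) in T286A than in wild-type cells. It was called in both comparisons under each of 16 alternative settings, with adjusted p up to 0.0265 and 0.0085. A second OAS3 probe set, with a mean of 6.60, gave -1.03 ± 0.28 and 1.16 ± 0.25, and the remaining probe set, with a mean of 4.47, gave -0.09 and 0.07.

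OASL, a catalytically inactive relative that supports RNA sensing through RIG-I, stood at 6.14 and 6.34 with the empty vector, at 5.76, 5.64 and 5.89 with wild type and at 6.69, 6.44 and 6.34 with T286A. Its wild-type arrays were the lowest, and 1 T286A array equalled the higher control to 2 decimals. OASL was 0.73 ± 0.11 higher (1.65-fold, adjusted p = 0.0231) in T286A than in wild-type cells, and its wild type minus empty vector difference of -0.47 ± 0.12 had an adjusted p of 0.120. The call of OASL was lost in 6 of 16 alternatives. It ended without any 1 of the 3 wild-type arrays (adjusted p 0.0542 to 0.0821). Leaving out T286A replicate 1 or 2 (0.0707 and 0.0827) or fitting a replicate block also ended it. OAS1 stood at 9.43 to 9.53 in controls, 9.19 to 9.21 in wild-type and 9.44 to 9.49 in T286A arrays, a wild-type difference of -0.28 ± 0.064 with an adjusted p of 0.0857. OAS2 gave 0.04 in wild-type cells (95% interval -0.20 to 0.28), and its groups overlapped. Of the 4 genes, 1 fell in wild-type cells, beside 1.14% of all genes. For T286A against the empty vector 0 were called, beside 0.532%, and 2 were higher in T286A than in wild-type cells, beside 0.598%.

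The IFIT proteins bind viral RNA by its 5′ end and block its translation. IFIT3, the partner that stabilises IFIT1 on RNA, stood at 8.89 and 8.84 with the empty vector, at 8.45, 8.38 and 8.35 with wild type and at 8.98, 8.99 and 8.88 with T286A. The wild-type arrays lay apart from all the others. IFIT3 fell by 0.48 ± 0.070 (1.39-fold lower, adjusted p = 0.0167) in wild-type cells and was 0.56 ± 0.062 higher (1.47-fold, adjusted p = 0.0068) in T286A than in wild-type cells. The first of these calls was lost in 5 of 16 alternatives. These were without either empty vector replicate or wild-type replicate 3 (adjusted p = 0.0517), with only the groups compared, and with a replicate block.

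IFIT2, which also promotes apoptosis, stood at 7.44 and 7.71 with the empty vector, at 7.09, 6.74 and 7.04 with wild type and at 7.64, 7.62 and 7.49 with T286A. Wild-type arrays were again the lowest, with the T286A arrays inside the range of the controls. IFIT2 was 0.62 ± 0.11 higher (1.54-fold, adjusted p = 0.0491) in T286A than in wild-type cells, a call lost in 14 of 16 alternatives and without any 1 of the 8 arrays (adjusted p 0.0649 to 0.168). Its wild type minus empty vector difference was -0.61 ± 0.12, with an adjusted p of 0.0558. IFIT1 and IFIT5 gave -0.39 and -0.17 in wild-type cells and 0.45 and 0.21 for T286A minus wild type, without a call. All 4 members had negative differences in wild-type cells, and in T286A cells all 4 lay 0.01 to 0.08 above the empty vector mean.

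MX2, a dynamin-like GTPase that blocks nuclear entry of HIV-1, was the 1 of 3 interferon-induced GTPases that fell. It stood at 9.27 and 9.42 with the empty vector, at 8.85, 8.96 and 8.85 with wild type and at 9.22, 9.17 and 9.13 with T286A. The T286A arrays fell between the other groups and overlapped neither. MX2 fell by 0.45 ± 0.076 (1.37-fold lower, adjusted p = 0.0273) in wild-type cells, where 1.14% of all genes were called lower. This call was lost in 10 of 16 alternatives, and leaving out any array but wild-type replicate 2 gave an adjusted p of 0.0528 to 0.230. GBP1, a guanylate-binding protein that coats intracellular pathogens, gave -0.36 ± 0.076 (adjusted p = 0.0627), and MX1, the relative that acts on influenza virus, gave -0.06 (95% interval -0.22 to 0.09) at a mean level of 12.2. For T286A minus wild type the 3 GTPases had a median of 0.28 with 0 called.

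ISG15 is a ubiquitin-like protein, HERC5 is its ligase in human cells and USP18 the protease that removes it, and 0 of these 4 genes with HERC6 were called in any comparison. ISG15 stood at 11.84 and 11.81 with the empty vector, at 11.45, 11.53 and 11.54 with wild type and at 11.82, 11.78 and 11.72 with T286A. Its wild-type arrays lay below all others, and the difference of -0.32 ± 0.067 in wild-type cells had an adjusted p of 0.0631. HERC6, near the lower end of the scale at a mean of 5.58, gave -0.69 ± 0.24 (adjusted p = 0.259), with wild-type arrays spread from 4.79 to 5.58. USP18 gave -0.03, and HERC5 gave 0.06 in wild-type and 0.26 in T286A cells.

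DDX60, a helicase that aids RNA sensing by RIG-I and MDA5, stood at 7.94 and 8.23 with the empty vector, at 7.51, 7.29 and 7.39 with wild type and at 8.26, 8.31 and 8.25 with T286A. It showed the order of OAS3, with wild type lowest and T286A just above the controls. DDX60 fell by 0.69 ± 0.10 (1.61-fold lower, adjusted p = 0.0167) in wild-type cells and was 0.88 ± 0.090 higher (1.84-fold, adjusted p = 0.00491) in T286A than in wild-type cells. The first call was lost in 4 of 16 alternatives. These were without empty vector replicate 2 or wild-type replicate 3 (adjusted p = 0.0546), with only the groups compared, and with a replicate block. The other 3 sensors were not called. Of all genes 1.14% were called lower in wild-type cells, and 0.598% higher in T286A than in wild-type cells. IFIH1, which encodes the long-RNA sensor MDA5, gave -0.28 in wild-type and -0.30 in T286A cells, EIF2AK2, the kinase PKR that halts translation, gave -0.06 and -0.06, and the DNA sensor IFI16 gave 0.02 and 0.09.

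Among the transcription factors 0 of 3 measured genes were called, and their median in wild-type cells was -0.01. IRF1, an activator shared by both interferon types, stood at 9.12 and 9.20 with the empty vector, at 9.02, 9.11 and 9.06 with wild type and at 8.97, 9.08 and 9.02 with T286A. All 6 arrays of the cyclin groups lay below both controls, by a small margin, and the T286A difference of -0.14 had an adjusted p of 0.491. IRF7, the amplifier of interferon alpha transcription, gave 0.08 in wild-type and 0.10 in T286A cells, and IRF9, the DNA-binding subunit of ISGF3, gave -0.01 and -0.13.

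The 3 members that hold viruses at membranes differed by -0.22 to -0.05 in wild-type cells. IFITM2, of the same family but in another list, was called lower and is described below. IFITM1, which blocks fusion of virus and cell, stood at 12.92 and 12.98 with the empty vector, at 12.72, 12.74 and 12.76 with wild type and at 12.92, 12.95 and 12.98 with T286A. The wild-type arrays again lay below all others, by a small margin, and T286A minus wild type gave 0.21 ± 0.056 with an adjusted p of 0.164. IFITM3 gave -0.22 in wild-type cells at a mean of 4.52, and BST2, the tetherin that keeps budding virus on the cell, gave -0.05 at 12.6. These 3 genes had 0 calls in any comparison.

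Of the 5 other IFI genes 0 were called. In wild-type cells 3 were lower at an unadjusted p under 0.05, beside 7.42% of all genes. IFI27, a mitochondrial protein and common marker of interferon exposure, stood at 8.73 and 8.82 with the empty vector, at 8.40, 8.20 and 8.43 with wild type and at 8.61, 8.77 and 8.75 with T286A. Wild-type arrays did not reach the other groups, and the difference of -0.43 ± 0.092 had an adjusted p of 0.0650. IFI6, its relative, gave -0.37 and IFI44L -0.22, while IFI44 gave -0.05 and IFI35 0.02.

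EPSTI1, first found as an epithelial gene induced by contact with stroma, was the 1 of 10 other effectors that was called. It stood at 9.47 and 9.49 with the empty vector, at 8.81, 8.89 and 8.84 with wild type and at 9.28, 9.44 and 9.36 with T286A. All wild-type arrays lay below the others, and the T286A arrays lay below both controls. Of all genes 1.14% were called lower in wild-type cells and 0.598% higher in T286A than in wild-type cells. EPSTI1 fell by 0.63 ± 0.072 (1.55-fold lower, adjusted p = 0.00652) in wild-type cells and was 0.51 ± 0.064 higher (1.43-fold, adjusted p = 0.0114) in T286A than in wild-type cells. The first call ended without empty vector replicate 1 (adjusted p = 0.0732) or 2 (0.0965), and the second without wild-type replicate 1 (0.0509) or T286A replicate 2 or 3 (0.0524 and 0.0575).

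Not every effector followed the order of EPSTI1. ISG20, an exonuclease that degrades viral RNA, stood at 10.94 and 10.94 with the empty vector, at 10.75, 10.87 and 10.98 with wild type and at 10.72, 10.58 and 10.60 with T286A. Here T286A was the lowest group, and wild type overlapped the controls. ISG20 gave -0.31 ± 0.086 for T286A minus empty vector (adjusted p = 0.173) and -0.23 ± 0.077 for T286A minus wild type (adjusted p = 0.250), neither of them called. It was singled out after its values were seen. PARP9, an ADP-ribosyltransferase, gave -0.29 in wild-type cells, XAF1, an inhibitor of the apoptosis inhibitor XIAP, gave -0.26, and RSAD2, the antiviral enzyme viperin, gave 0.01 at a mean of 4.11, the lowest of the members. TRIM22, a ubiquitin ligase, gave 0.03 at a mean of 12.5, SAMD9 gave -0.01 and PARP14 gave -0.08.

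**Figure D3:**
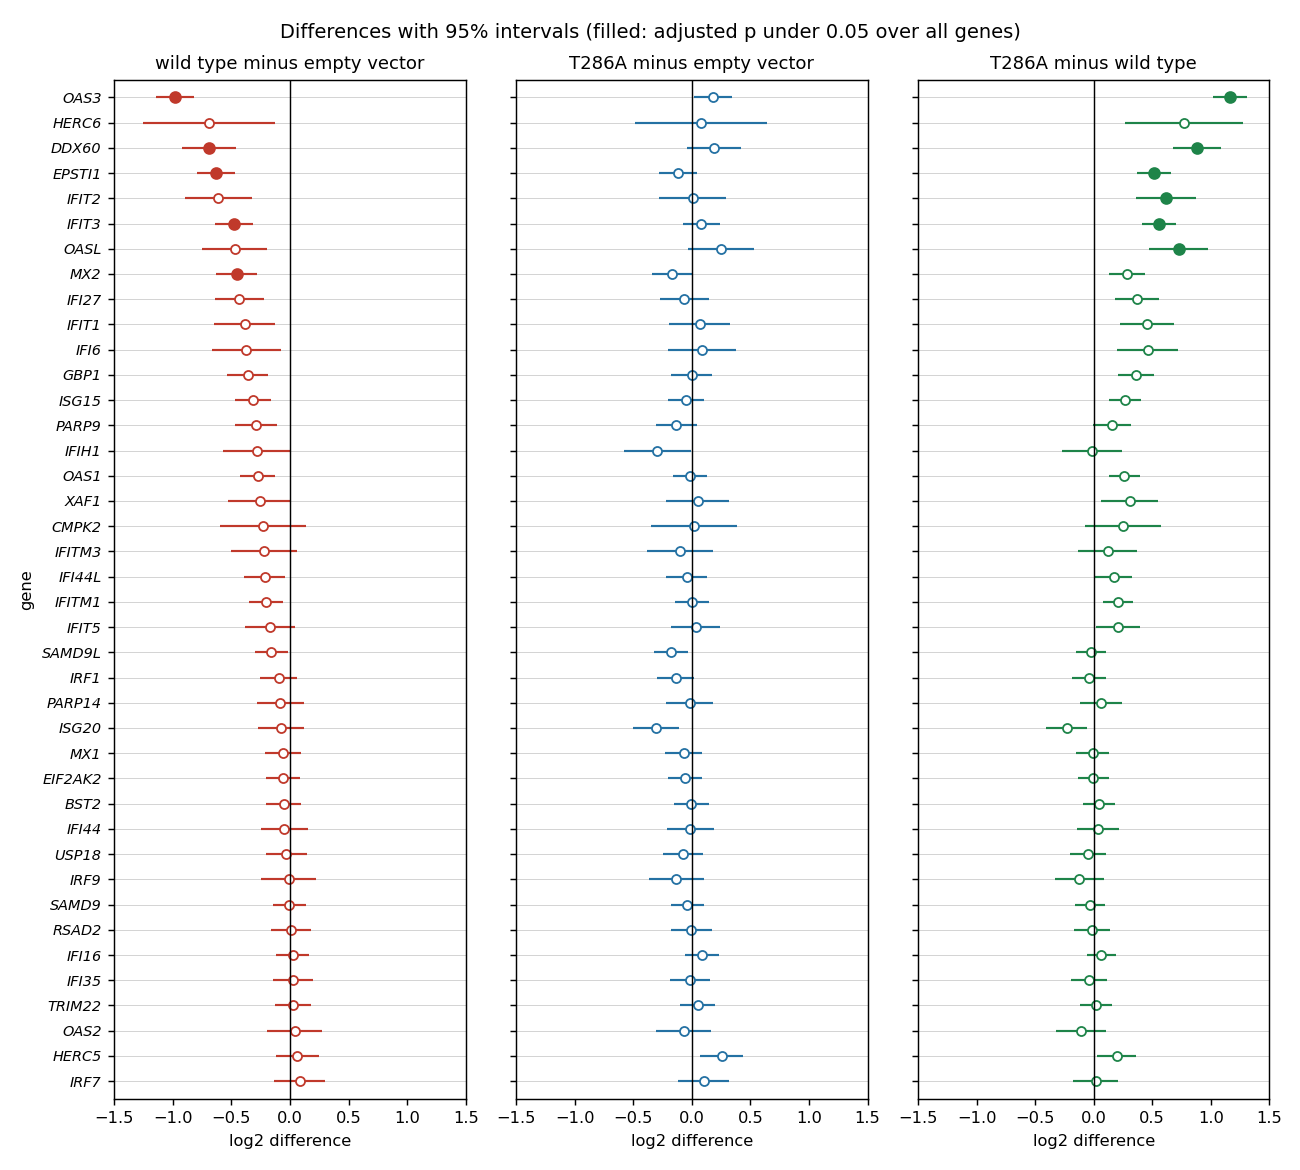
Log2 difference of each of the 40 members with its 95% interval, for wild type minus empty vector, T286A minus empty vector and T286A minus wild type, with filled points for members called at an adjusted p under 0.05. OAS3 lies farthest from 0 in the first and last comparison, at -0.98 and 1.16, and 0 points are filled for T286A minus empty vector.

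Several members are neighbours on a chromosome. OAS1, OAS3 and OAS2 follow each other on chromosome 12 with no coding gene between, and their wild type minus empty vector differences were -0.28, -0.98 and 0.04. MX2 and MX1 on chromosome 21 gave -0.45 and -0.06, HERC6 and HERC5 on chromosome 4 gave -0.69 and 0.06, and CMPK2 and RSAD2 on chromosome 2 gave -0.23 and 0.01. Along chromosome 10 the order IFIT2, IFIT3, IFIT1, IFIT5 gave -0.61, -0.48, -0.39 and -0.17, with IFIT1B between IFIT3 and IFIT1. IFITM1 and IFITM3 on chromosome 11 gave -0.21 and -0.22, SAMD9 and SAMD9L on chromosome 7 gave -0.01 and -0.16, and IFI44L and IFI44 on chromosome 1 gave -0.22 and -0.05. The differences between neighbours were not tested, and members of one family can share probe sequence.

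Further probe sets of the same genes were read from the same RNA on the same arrays. The members below were picked by their p in these arrays, so agreement between probe sets is not independent support. Of the 18 members with an unadjusted p under 0.05 in wild-type cells, 10 had other probe sets, 20 in all, of which 19 had the same sign and 11 also had an unadjusted p under 0.05, with 0 of opposite sign at that level. For T286A minus wild type 10 of 20 such members had 22 other probe sets, 21 of the same sign, 14 of them with an unadjusted p under 0.05. MX2 gave -0.24 on its other probe set and IFIT2 gave -0.30. IRF1, flat on its brightest probe set, gave -0.39 in wild-type cells on a probe set with a mean of 7.69. The probe sets used for 13 members, OAS3, IFIT3, OASL and ISG15 among them, carry the array maker's suffix for probes that may also read related sequences.

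The genes that make, receive and restrain interferon were read beside its targets. Over all genes, 1.74% were called for wild type minus empty vector, 0.532% for T286A minus empty vector and 0.987% for T286A minus wild type. Of 7 interferon genes measured 0 were called. IFNG, the type II interferon, had the smallest p, at 5.71 and 5.78 with the empty vector, 6.59, 6.05 and 6.43 with wild type and 5.31, 5.43 and 5.93 with T286A. Its wild-type arrays were the highest, with differences of 0.61 for wild type minus empty vector (adjusted p = 0.225) and -0.80 for T286A minus wild type (adjusted p = 0.106).

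JAK1, the kinase shared by the receptors of both interferon types, moved opposite to most targets and was the 1 of 9 receptor and JAK genes called. It stood at 8.79 and 8.99 with the empty vector, at 9.39, 9.39 and 9.49 with wild type and at 8.72, 8.73 and 8.71 with T286A. Wild-type arrays lay above all others. JAK1 rose by 0.53 ± 0.079 (adjusted p = 0.0173) in wild-type cells and was lower in T286A than in wild-type cells, at -0.70 ± 0.070 (adjusted p = 0.00445). All 3 JAK1 probe sets gave 0.51 to 0.55 and -0.74 to -0.64 in these comparisons. The second call held in 16 of 16 alternatives, while the first was lost in 6. Among these 6 were the fits without either empty vector replicate and without wild-type replicate 1 (adjusted p = 0.0539) or 3 (0.0532). The 9 genes had a median of 0.18 in wild-type cells, with 5 higher and 1 lower at an unadjusted p under 0.05. Of all genes 6.08% were higher and 7.42% lower at that level. IFNLR1, 1 of the 9, was dim, at a mean of 4.21.

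SOCS3, a feedback inhibitor of JAK kinases, was the 1 of 6 inhibitor genes called. It stood at 5.90 and 5.81 with the empty vector, at 5.45, 5.18 and 5.26 with wild type and at 5.42, 5.47 and 5.69 with T286A. Both cyclin groups lay below the controls. SOCS3 fell by 0.56 ± 0.11 (adjusted p = 0.0495) in wild-type cells, a call that was lost without any 1 of the 8 arrays (adjusted p 0.0517 to 0.253). A second SOCS3 probe set, with a mean of 4.42, gave -0.07. The 6 inhibitors had a median of -0.12, and their 1 call stood beside 1.14% of all genes called lower in wild-type cells.

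Among 27 further interferon-stimulated genes measured, IFITM2 and PML fell in wild-type cells, 0 rose, and the median was -0.07. Of all genes 1.14% were called lower and 0.603% higher. IFITM2, another membrane protein of the IFITM family, stood at 11.14 and 11.24 with the empty vector, at 10.58, 10.74 and 10.80 with wild type and at 11.19, 11.03 and 11.13 with T286A. Its wild-type arrays were the lowest. IFITM2 fell by 0.49 ± 0.087 (adjusted p = 0.0353) and PML, the organiser of nuclear bodies, by 0.43 ± 0.075 (adjusted p = 0.0312). PML stood at 7.74 and 7.87 with the empty vector, at 7.37, 7.43 and 7.33 with wild type and at 7.58, 7.54 and 7.66 with T286A. The 3 groups of PML did not overlap. Both calls were lost without any 1 of the 8 arrays, at adjusted p of 0.0535 to 0.262 for IFITM2 and 0.0538 to 0.255 for PML. The other IFITM2 probe set gave -0.55. Both IFITM2 probe sets, and the PML probe set used, carry the suffix for probes that may also read related sequences. Of 4 other PML probe sets 2 gave -0.37 and -0.42, and 2 dimmer ones gave -0.05 and 0.11. The 27 genes had 0 calls for T286A minus empty vector, with a median of -0.08, and 0 for T286A minus wild type, with a median of 0.01.

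Of 6 other STAT and IRF factors, 13 sensing genes upstream of interferon and 12 genes known for their response to interferon gamma, 0 were called in any comparison. The smallest p in wild-type cells belonged to IRF8, a B-cell transcription factor, at -0.37 (adjusted p = 0.0930), to STING1, the adaptor of the DNA sensor cGAS, at -0.49 (adjusted p = 0.0578), and to GBP2, at -0.51 (adjusted p = 0.0560). Their medians in wild-type cells were -0.16, -0.03 and -0.10. GBP2 stood low in both cyclin groups, at 8.74 and 8.63 with the empty vector, 8.16, 8.03 and 8.32 with wild type and 8.29, 8.33 and 8.12 with T286A.

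**Figure D4:**
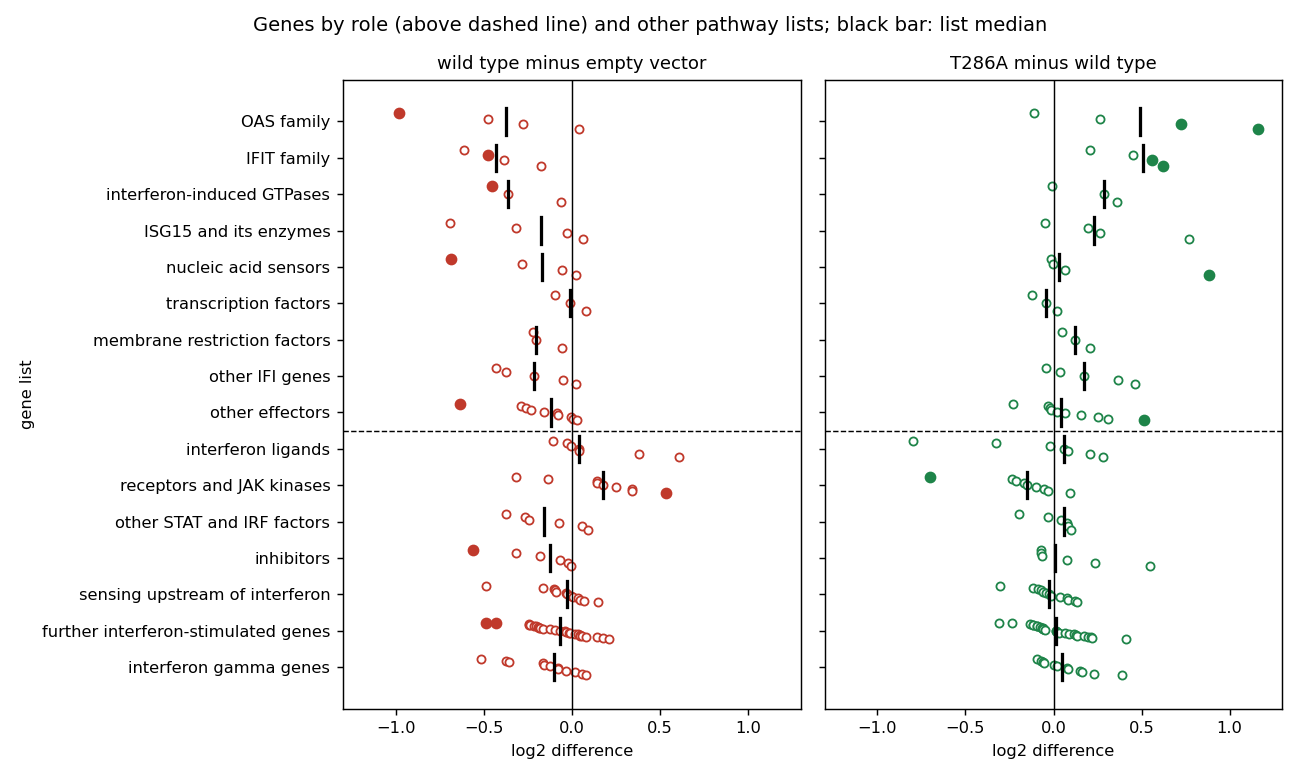
Log2 differences of the members by role and of the other interferon pathway lists, with 1 point a gene (filled where called) and a bar at each list's median, for wild type minus empty vector and T286A minus wild type. The OAS and IFIT families have medians of -0.38 and -0.43 for wild type minus empty vector and of 0.49 and 0.51 for T286A minus wild type, while the median of the receptor and JAK genes lies on the opposite side in both, at 0.18 and -0.15.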

How the data were processed

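Log2 levels deposited by the authors for 8 JVM13 arrays were used as given; the submitters' processing notes name RMA and R 3.5.0, with no settings. RMA usually gives arrays one distribution, so a change shared by most genes would not be seen, and RMA compresses differences of dim genes. Detection calls were not used. Groups come from the sample titles. Nothing in the labels says that replicates were separate cultures, so p-values here reflect array-to-array spread that may be technical, and the number of arrays limits precision.

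Of 48864 probe sets, 45220 were annotated to a single gene, giving 18231 genes, each read by its brightest probe set. Limma 3.58.1 in R 4.3.3 fitted 3 group means to all 8 arrays with no filter and no covariate, giving two-sided tests with Benjamini-Hochberg adjustment over all genes, called at an adjusted p under 0.05. The procedure was tested on simulated data. The members and lists were chosen with earlier results of these data known.

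Values per array are given for members called in any comparison, for the member with the smallest p in each role group without a call, and for called genes of the pathway lists; where a list has no call, its gene with the smallest p is given. STAT2, TDRD7, IFNA1, IFNL2 and IFNL3 are not analysed here. Alternatives were the mean of all probe sets, a trended robust prior, array weights, 2 other scalings, only genes at or above the median level, only the groups compared, a replicate block and leaving out each array. Promoter windows are from RefSeq. No pair of arrays held identical values.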

Additional observations from a re-analysis of the deposited data

How the results depend on the processing

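The members' medians kept their sign under every alternative run. So did the differences of called genes in the comparison called, and of the smallest-p genes of lists without a call. The signs of other members were not followed. Centring on array medians moved the median of all genes for wild type minus empty vector to 0.069, so small negative differences there could change sign. The 5 members called for wild type minus empty vector stood beside 317 of all 18231 genes. They became 8 with the mean of all probe sets (406 of all genes) and 14 with a trended robust prior (747). Array weights gave 8 (404), genes at or above the median level 12 (629 of 9116), and only the groups compared 2 (68). Leaving out a wild-type or T286A array gave as few as 2. The 6 called for T286A minus wild type (180 of all genes) became 16 with the trended robust prior (602) and 13 among genes at or above the median level (381 of 9116). Leaving out a wild-type or T286A array gave as few as 3. For T286A minus empty vector the trended robust prior called 1 member and 626 of all genes, where the main fit called 97 genes. The median for wild type minus empty vector was -0.19 with the mean of all probe sets, -0.14 centred on array medians, -0.19 among genes at or above the median level and -0.22 to -0.16 without single arrays. For T286A minus wild type it was 0.10 centred on array medians, 0.12 centred on 8 housekeeping genes and 0.13 to 0.18 without single arrays, and for T286A minus empty vector -0.047 centred on housekeeping genes and -0.034 to -0.014 without single arrays. The cause of these shifts was not tested.

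Same-numbered wild-type and T286A arrays correlated at 0.0409, 0.119 and 0.00345 in their deviations from group means over all genes. Over the members alone the values were 0.293, 0.273 and 0.0490. Same-numbered wild-type and empty vector arrays gave -0.0901 and -0.0909 over all genes, and -0.498 and -0.604 over the members. These values do not settle whether the numbers pair the arrays. With the replicate number as a block, 2 members were called for wild type minus empty vector, 4 for T286A minus wild type and 0 for T286A minus empty vector, and over all genes 71, 86 and 3 in place of 317, 180 and 97. Over all genes, wild-type replicate 3 correlated best with T286A replicate 1, at 0.0962.

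Over all genes, calls for T286A minus empty vector went from 62 higher and 35 lower to 24 and 30 when centred on housekeeping genes, and for T286A minus wild type from 109 and 71 to 91 and 109 when centred on array medians or 86 and 90 on housekeeping genes. With 2 empty vector arrays, the loss of either leaves a single control assumed to vary like the other groups.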
